A study of Homo sapiens with 3 samples.

Results

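Nonsense-mediated decay (NMD) is the surveillance pathway that degrades messenger RNAs on which translation stops too early. The 9 genes described here encode its central factors: UPF1, UPF2, UPF3A, UPF3B, SMG1, SMG5, SMG6, SMG8 and SMG9. They were chosen by name, and each matched 1 row of the 57268 gene rows, so 9 of 9 were found. All 9 also passed the filter used for counts over genes, a mean of 1 or more CPM (read counts scaled to library size) over the 3 libraries, as did 16072 genes in all.

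The study sequenced RNA of HEK 293T cells, a human embryonic kidney line (the sample titles shorten this to HEK293), to ask how the splicing factor SRSF9 affects adenosine-to-inosine editing by ADAR2. There were 3 libraries with 1 per group: cells with no overexpression (control), cells overexpressing ADAR2 alone, and cells overexpressing ADAR2 together with SRSF9. The labels name no vector, promoter or transfection control for the control cells, so overexpression itself and the protein overexpressed cannot be told apart. With 1 library per group no difference has a replicate check and no p-value is given, and intervals are 95% counting intervals that leave out variation between cultures. Read totals were 152878282, 132887974 and 97875935 for control, ADAR2, and ADAR2 with SRSF9, the order of values used throughout. ADARB1, the gene of ADAR2, stood at 114, 16100 and 13647 CPM and SRSF9 at 372, 369 and 18288 CPM, as the labels state. The HEK293 markers NEFM (299, 332 and 298 CPM) and VIM (284, 265 and 253 CPM) were present, PAX2 and LHX1 lay between 3.33 and 4.05 CPM, and the leukocyte markers PTPRC and CD3E had at most 6 reads in a library. ESR1, listed as a marker of breast lines, was also detected (8.94 to 9.60 CPM).

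As background, UPF1 is an RNA helicase that assembles on a terminating ribosome and is the core of the pathway. UPF2 binds UPF1 and stimulates it, while UPF3B and its paralogue UPF3A connect UPF2 to the exon junction complex left upstream of splice junctions. SMG1 is a kinase of the PI3K-related family that phosphorylates UPF1, held in check by its partners SMG8 and SMG9. Phosphorylated UPF1 recruits the endonuclease SMG6, which cuts the message, and the adaptor SMG5, which brings in decapping and deadenylation. Transcripts of several of these factors are themselves known NMD substrates, so the pathway regulates its own components.

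Base composition is printed first, because ratios between these libraries followed it and the partner genes UPF1 and UPF2, and SMG9 and SMG8, differ in it. Each line is a stretch of 30 coding bases, 5′ to 3′ on the sense strand, whose GC share is nearest that of the whole transcript, read from GENCODE v29 with G and C in capitals. The stretches start at coding base 16 of UPF1, 19 of UPF2, 4 of SMG9 and 172 of SMG8, counted from the A of the start codon.
UPF1: taCGGGCCCaGCtCGCaGaCtCtCaCtttC
UPF2: aaGCCaGCaaGtatGGaaGaaaaaGaCtCt
SMG9: tCtGaGtCtGGaCaCaGtCaGCCtGGaCtC
SMG8: CtaCGCCtGaattCCGaGaaGttCtCtCtt
G and C make up 18 of 30 bases in the UPF1 stretch and 12 in that of UPF2, 17 in SMG9 and 14 in SMG8. Over the longest transcript GC content was 60.5% for UPF1, 57.6% for SMG5, 55.3% for SMG9 and 55.3% for SMG6. It was 47.8% for SMG8, 43.2% for SMG1, 41.8% for UPF3A, 41.8% for UPF3B and 40.3% for UPF2. The longest UPF3A transcript is an exception in kind, since the longest one annotated as protein-coding has a GC content of 48.4%.

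Levels of the 9 genes differed far more between genes than between libraries. Per kilobase of annotated exon, UPF3B was highest in the control at 54.7 CPM per kb, then SMG5 at 42.4 and UPF1 at 19.4. SMG8 (10.5 CPM per kb), UPF2 (9.30), SMG1 (7.61) and UPF3A (5.997) followed, and SMG9 (4.16) and SMG6 (2.94) were lowest. The order was the same in the other 2 libraries, and neighbours in it had separate counting intervals in each library. The order of the middle genes depends on the length used. Divided by the length of the longest transcript, UPF3A (14.3 CPM per kb in the control) moved from the seventh place to the fourth, while UPF3B, SMG5, UPF1, SMG9 and SMG6 kept theirs.

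The scale from here on is CPM without division by length, and each gene is compared with itself. UPF1 (ENSG00000005007.8, chromosome 19), the helicase, had 25745, 25794 and 17868 reads, or 167, 192 and 186 CPM. It was thus lowest in the control and close in both overexpressing libraries. Its ratio was 1.15 for ADAR2 against control (1.13 to 1.17), 1.12 for both proteins against control (1.097 to 1.14) and 0.970 for both proteins against ADAR2 (0.952 to 0.989).

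UPF2 (ENSG00000151461.15, chromosome 10), the activator of UPF1, went the other way. It stood at 54.9, 48.0 and 50.2 CPM, from 8483, 6439 and 4808 reads, and was highest in the control. The ratio was 0.873 for ADAR2 against control (0.845 to 0.902), 0.913 for both proteins against control (0.881 to 0.946) and 1.05 for both proteins against ADAR2 (1.01 to 1.09).

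UPF3A (ENSG00000169062.10, chromosome 13) and UPF3B (ENSG00000125351.6, chromosome X), the paralogues that link UPF2 to exon junctions, differed from each other. UPF3B followed UPF2, with 169, 147 and 154.5 CPM from 26043, 19797 and 14811 reads. Its ratio was 0.875 for ADAR2 against control (0.859 to 0.891), 0.9165 for both proteins against control (0.898 to 0.935) and 1.05 for both proteins against ADAR2 (1.03 to 1.07). UPF3A, at 34.6, 36.7 and 39.4 CPM from 5348, 4933 and 3781 reads, was lowest in the control and highest with both proteins. Its ratio was 1.06 for ADAR2 against control (1.02 to 1.104), 1.07 for both proteins against ADAR2 (1.03 to 1.12) and 1.14 for both proteins against control (1.09 to 1.19).

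SMG1 (ENSG00000157106.12, chromosome 16), the kinase, showed little difference between the control and the library with both proteins. It had 198, 186 and 196 CPM, from 30541, 24928 and 18758 reads, and was lowest with ADAR2 alone. Its ratio was 0.939 for ADAR2 against control (0.924 to 0.955), 1.05 for both proteins against ADAR2 (1.03 to 1.07) and 0.9898 for both proteins against control (0.972 to 1.01), the last within counting error.

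SMG8 (ENSG00000167447.8, chromosome 17) and SMG9 (ENSG00000105771.9, chromosome 19), the partners of that kinase, moved apart. SMG8 had 39.5, 32.3 and 36.3 CPM, from 6097, 4341 and 3477 reads. It was lowest with ADAR2 alone, at 0.819 times the control (0.788 to 0.852). With both proteins it stood at 1.12 times the ADAR2 level (1.07 to 1.17) and 0.919 times the control (0.881 to 0.958). SMG9 had 33.0, 38.7 and 39.5 CPM, from 5097, 5201 and 3787 reads. Both overexpressing libraries were above the control, at 1.17 (1.13 to 1.22) and 1.197 times (1.15 to 1.25), and they differed from each other by less than counting error (1.02, 0.978 to 1.06).

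SMG5 (ENSG00000198952.7, chromosome 1) and SMG6 (ENSG00000070366.9, chromosome 17), which act on phosphorylated UPF1, were both higher than control in the 2 overexpressing libraries. SMG5, the adaptor, had 225, 238 and 237 CPM from 34734, 31971 and 22747 reads, a ratio of 1.06 with ADAR2 (1.04 to 1.08) and 1.06 with both proteins (1.04 to 1.07). SMG6, the endonuclease, had 31.0, 35.5 and 34.9 CPM from 4792, 4761 and 3343 reads, a ratio of 1.14 with ADAR2 (1.098 to 1.19) and 1.12 with both proteins (1.08 to 1.18). Neither separated the 2 overexpressing libraries beyond counting error, with ratios of 0.996 (0.980 to 1.01) for SMG5 and 0.983 (0.941 to 1.03) for SMG6.

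**Figure D1:**
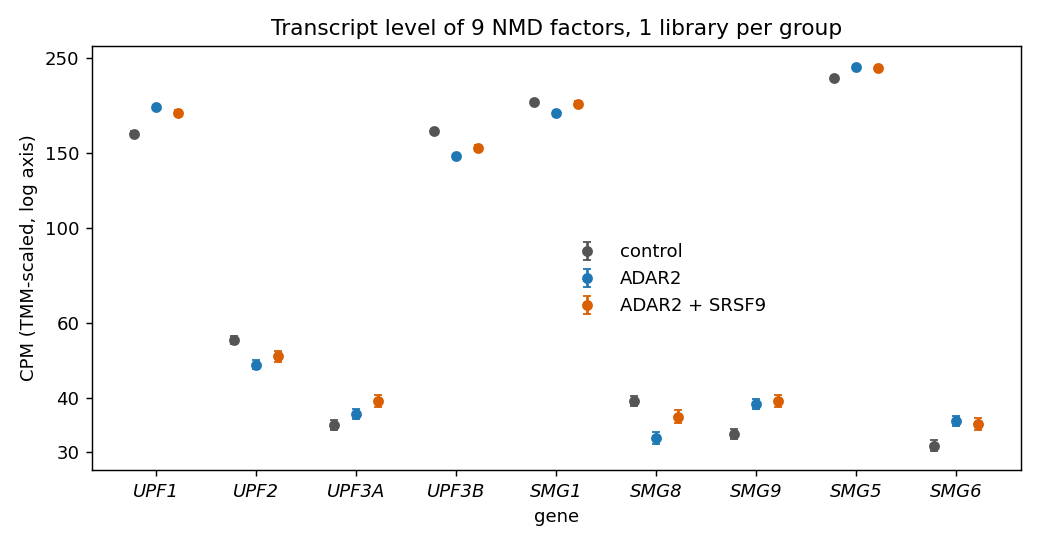
Transcript level in CPM (log axis) of the 9 genes, 1 point per library, with 95% counting intervals as bars where wider than the point. UPF1, SMG9, SMG5, SMG6 and UPF3A lie lowest in the control, and UPF2, UPF3B and SMG8 highest in it.

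As a group the 9 genes differed little between libraries. A gene was counted as apart when its ratio was 1.2-fold or more and its counting interval excluded 1. For ADAR2 against control, SMG8 alone was apart, 1.22-fold lower, and 0 of 9 were higher, beside 6.46% of all 16072 genes lower and 7.43% higher. That call was lost once the GC trend described further on was subtracted, which left SMG8 at 0.839 times the control. Between the 2 overexpressing libraries, 0 of 9 were apart, beside 5.72% of all genes higher and 8.21% lower. All members lay above 30 CPM, and over genes with a mean of 10 or more CPM the share apart in either direction was 7.61% for ADAR2 against control and 4.31% between the overexpressing libraries. In the library with both proteins, 0 of 9 were apart from the control, beside 13.8% of all genes higher and 12.7% lower. Over genes with a mean of 10 or more CPM that share was 18.5% in either direction. SMG9 was just inside the threshold at 1.197 times. At 1.5-fold, 0 of 9 were apart in each comparison, beside 1.26% (ADAR2 against control), 3.39% (both proteins against ADAR2) and 3.99% (both proteins against control) of all genes.

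Median log2 ratios of the 9 against control were 0.08 with ADAR2 and 0.08 with both proteins, and that of both proteins against ADAR2 was 0.06. Over all 16072 genes the same medians were -0.0009, -0.01 and 0.01. These comparisons share libraries: the control is common to the first 2, and each overexpressing library enters 2 of the 3.

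Directions within the group were mixed. For ADAR2 against control the counting interval excluded 1 in all 9, with UPF1, UPF3A, SMG5, SMG6 and SMG9 higher and UPF2, UPF3B, SMG1 and SMG8 lower. The interval excluded 1 for 31.5% of all genes on the higher side and 32.4% on the lower. Counting intervals narrow as reads rise. These shares and those that follow include genes down to a mean of 1 CPM, so they are not matched to the members in read number. With both proteins the same 5 were higher and UPF2, UPF3B and SMG8 lower than control, beside 33.4% and 35.3% of all genes. Relative to ADAR2 alone, the library with both proteins had UPF2, UPF3A, UPF3B, SMG1 and SMG8 higher and UPF1 lower, beside 27.5% and 23% of all genes.

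The split in direction followed GC content. All 4 members with a GC content over 50% (SMG6, SMG9, SMG5 and UPF1) were above the control in both overexpressing libraries, and of the 5 under 50% all but UPF3A were below it, SMG1 with both proteins by less than counting error. The same slope ran through the other genes: the running median over 9594 protein-coding genes with a mean of 10 or more CPM had a log2 ratio for ADAR2 against control of -0.13 at the GC content of UPF2 and 0.15 at that of UPF1. In both proteins against ADAR2 the running median sloped less, at -0.0016 for UPF2 and 0.05 for UPF1. Subtracting it there took UPF1 from a log2 ratio of -0.04 to -0.09, while 6 members lay above 0 and 3 below both before and after.

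With that running median subtracted, UPF1 was at a log2 ratio of 0.05 for ADAR2 against control in place of 0.21, UPF2 at -0.06 in place of -0.20 and UPF3B at -0.07 in place of -0.19. SMG1 and SMG5 changed sign, from -0.09 to 0.01 and from 0.08 to -0.03. SMG8 moved little, to -0.25 from -0.29. SMG9 moved to 0.14 from 0.23 and SMG6 to 0.11 from 0.19. UPF3A was at 0.21 with the GC content of its longest transcript and at 0.12 with that of its longest coding transcript, in place of 0.09.

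In the library with both proteins, compared with control, the subtraction took UPF1 from 0.16 to -0.03, UPF2 from -0.13 to 0.01, UPF3B from -0.13 to -0.01 and SMG5 from 0.08 to -0.06. UPF3A was at 0.30 (0.22 with its coding transcript), which is past 1.2-fold on the first measure and not on the second. SMG9 was at 0.15, SMG6 at 0.06, SMG1 at 0.09 and SMG8 at -0.09.

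**Figure D2:**
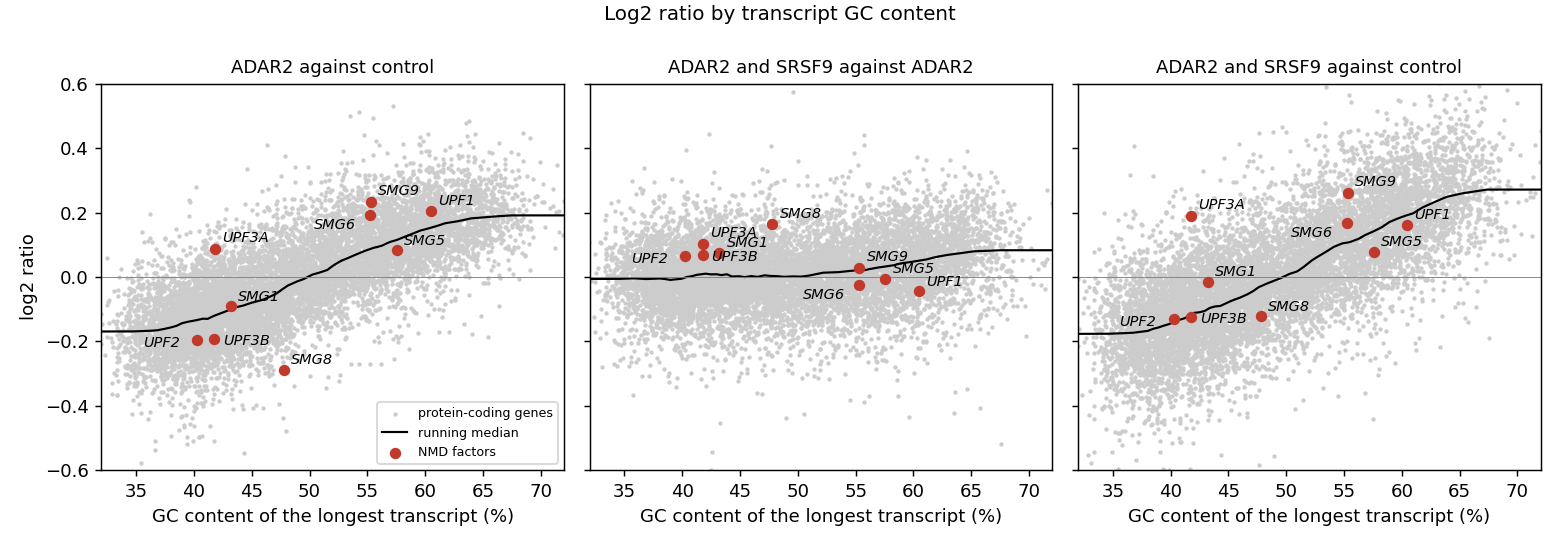
Log2 ratio (vertical axis) against GC content of the longest transcript in percent (horizontal axis) in the 3 comparisons. Grey points are 9594 protein-coding genes, of which 3, 9 and 18 lie beyond the vertical limits of 0.6 and 18 beyond the horizontal ones. The black line is their running median and the red points are the 9 NMD factors. In the left panel SMG8 (-0.29) and UPF3A (0.09) stand farthest from the line.

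Ratios between 2 members inside a library do not depend on how libraries are scaled. SMG9 relative to SMG8, the 2 subunits bound to the SMG1 kinase, was 1.43 times its control value with ADAR2 (1.36 to 1.51) and 1.30 times with both proteins (1.23 to 1.38). This was the widest shift among the pairs compared before the GC trend was subtracted. Subtracting it left 1.32 and 1.19, and with both proteins UPF3B relative to UPF3A (0.805) then lay farther from 1. With the GC content of coding transcripts it did not, at 0.860 beside 1.18 for SMG9 relative to SMG8. UPF1 relative to UPF2 was 1.32 times its control value with ADAR2 (1.27 to 1.37) and 1.22 times with both proteins (1.18 to 1.27), and 1.08 and 0.974 without the GC trend.

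UPF3B relative to UPF3A was 0.824 times its control value with ADAR2 (0.790 to 0.860) and 0.804 times with both proteins (0.768 to 0.843). Without the GC trend these were 0.825 and 0.805 with longest transcripts, or 0.880 and 0.860 with coding ones. UPF2 relative to UPF3B differed from its control value by less than counting error, at 0.999 (0.962 to 1.04) and 0.997 (0.957 to 1.04). SMG5 relative to SMG6 was at 0.926 (0.888 to 0.967) and 0.939 (0.895 to 0.984), and farther from 1 without the GC trend, at 0.909 and 0.916. SMG1 relative to SMG8 was at 1.15 (1.099 to 1.196) and 1.08 (1.03 to 1.13), and also farther from 1 without the GC trend, at 1.199 and 1.131. Relative to SMG9 it was at 0.7999 (0.767 to 0.834) and 0.827 (0.790 to 0.865), or 0.911 and 0.954 without the GC trend.

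**Figure D3:**
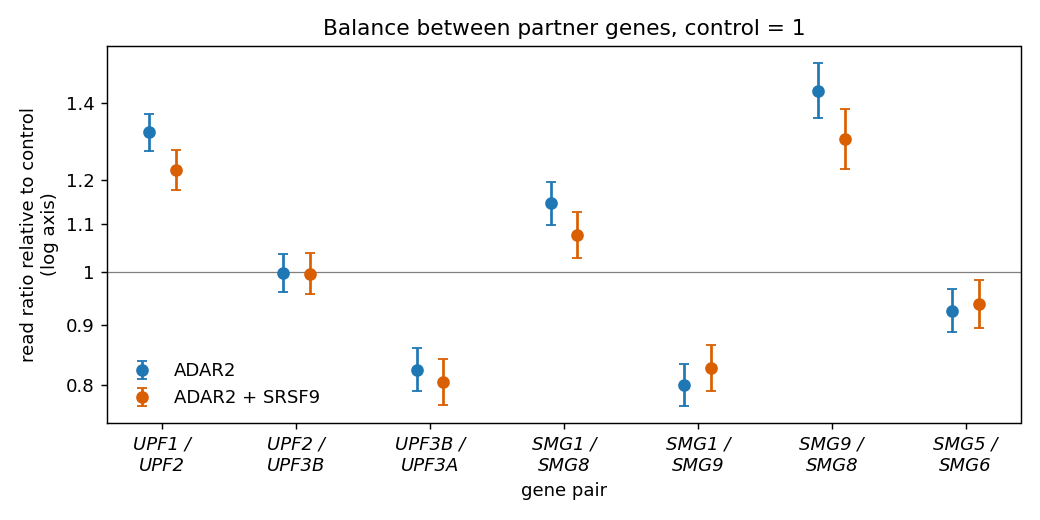
Ratio of the reads of 2 genes in a library, divided by the same ratio in the control (log axis, control at 1), with approximate 95% counting intervals. SMG9 over SMG8 (1.43 and 1.30) and UPF1 over UPF2 (1.32 and 1.22) lie farthest above 1, and UPF2 over UPF3B lies on it.

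SMG1 shares sequence with other loci, which limits its count. Of the 75-base windows of its longest transcript, 14.6% also occur in transcripts of other genes in GENCODE v29, chiefly those of 7 unprocessed, that is duplicated, SMG1 pseudogenes. The 7 rows of these pseudogenes together held 26029, 20110 and 15915 reads, against 30541, 24928 and 18758 for SMG1. The 2 largest, SMG1P2 (40.3, 35.6 and 37.5 CPM) and SMG1P5 (37.7, 32.1 and 35.2 CPM), like the other 5, were lower with ADAR2 than in the control. That interval excluded 1 in 6 of 7, beside 32.4% of all genes on the lower side, with SMG1P1 the exception (0.875 to 1.004). This share, like the one given below for the higher side, is not matched in read number. The 7 rows share stretches of SMG1 sequence, so they need not be 7 separate measurements. The GC trend was not subtracted from them. At the GC content of SMG1 that trend was at a log2 ratio of -0.099 for ADAR2 against control.

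All 7 pseudogenes were higher with both proteins than with ADAR2 alone, at log2 ratios of 0.07 (SMG1P2) to 0.39 (SMG1P6), and each interval excluded 1, as did 27.5% of all genes on the higher side. Summed, they stood at 0.889 times the control with ADAR2 (0.873 to 0.906), 1.11 times ADAR2 with both proteins (1.09 to 1.13), and 0.985 times the control with both proteins (0.966 to 1.005). SMG1 itself was at 0.939, 1.05 and 0.9898. With all 7 rows added to SMG1 the ratios were 0.916, 1.08 and 0.988. How many of these reads came from SMG1 was not tested.

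**Figure D4:**
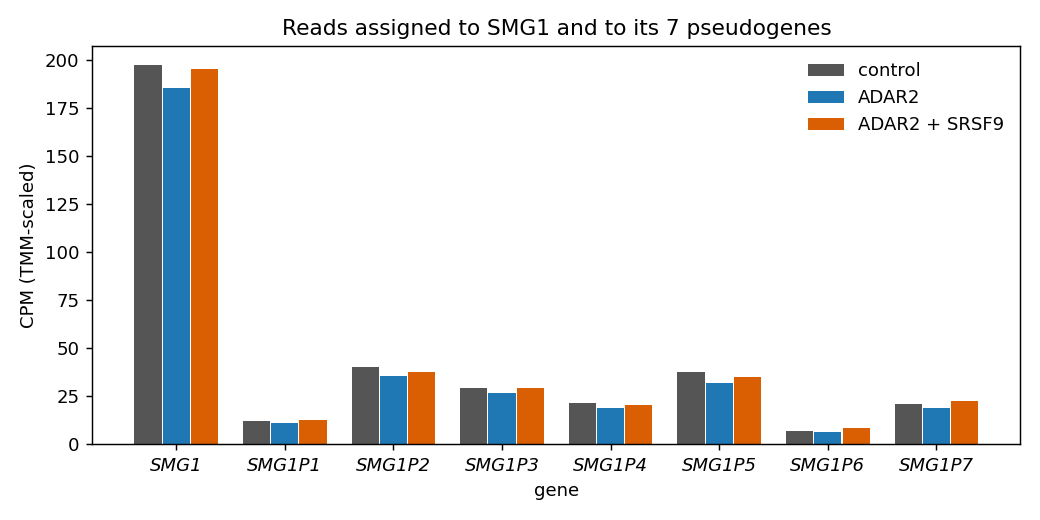
Level in CPM (bars, from 0) of SMG1 and the 7 pseudogene rows in the 3 libraries. Each pseudogene is lower than SMG1 and, as SMG1, has its lowest bar in the ADAR2 library.

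UPF3A shared less of its sequence with other loci, while SMG6 and SMG8 overlap other genes at their own locus. UPF3A shared 1.62% of its windows, all with UPF3AP1, and the 3 UPF3A pseudogenes held 776, 761 and 450 reads against 5348, 4933 and 3781. UPF3AP1 itself was at 1.44, 2.12 and 1.34 CPM, lower with both proteins than with ADAR2 while UPF3A was higher. With the 3 rows added, the interval of UPF3A for both proteins against ADAR2 no longer excluded 1 (1.04, 0.9998 to 1.08). SMG6 shared 29.02% of its windows, all with HIC1, a transcriptional repressor gene on the opposite strand of the same locus. Exons of opposite-strand genes, chiefly HIC1, cover 25.4% of SMG6 exon bases. HIC1 stood at 3.86, 3.69 and 4.35 CPM beside 31.0, 35.5 and 34.9 for SMG6. Whether reads were counted by strand is not given in the sources used here, so HIC1 reads could enter the SMG6 count, and this was not tested. SMG8 shared 10.3% of its windows with AC099850.2, whose exons overlap 11.25% of SMG8 exon bases on the same strand. The AC099850.2 row held 0 reads in each library, and how reads in the overlap were assigned was not tested. UPF1, UPF2, UPF3B, SMG5 and SMG9 shared 0 windows with other genes.

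Around the 9 members, 87 measured genes in 13 lists of linked factors and substrates were examined, and in each comparison 0 of 87 were 1.5-fold apart, beside the 1.26%, 3.39% and 3.99% of all genes given above. At 1.2-fold, 1 was higher and 1 lower in the ADAR2 library than in the control, beside 7.43% and 6.46% of all genes. With both proteins 6 were higher and 4 lower than control, beside 13.8% and 12.7%, and 1 was higher and 0 lower than with ADAR2, beside 5.72% and 8.21%. With the GC trend subtracted, 0 of the 2 called for ADAR2 against control and 3 of the 10 called with both proteins against control stayed past 1.2-fold, the 3 being SNHG15, XRN1 and ZFAS1.

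Among other NMD factors (6 measured), DHX34, a helicase that promotes UPF1 phosphorylation, was the 1 gene apart from the control. It stood at 53.6, 67.7 and 69.3 CPM, a log2 ratio of 0.33 and then 0.37 against control, and 0.17 and 0.16 without the GC trend. PNRC2, a decapping adaptor, was lowest of the list against control (-0.17 and -0.24), and at -0.0034 and -0.07 without the GC trend.

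Of the exon junction complex core (5 measured), to which UPF3B binds, 0 were apart in each comparison. EIF4A3, its RNA-clamping helicase, had 232, 230 and 245 CPM. Against control, RBM8A was lowest with ADAR2 (-0.13) and CASC3 with both proteins (-0.13). Of the 6 peripheral and recycling factors 0 were apart too, with RNPS1 highest (0.14) and PNN lowest (-0.20) for ADAR2 against control. Translation termination factors (3 of 4 measured) had 0 apart, ABCE1, the ribosome-recycling ATPase, being lowest (-0.25 and -0.21 against control).

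The kinase relatives of SMG1 (ATM, ATR, MTOR, PRKDC and TRRAP) had 0 of 5 apart in each comparison, with log2 ratios from -0.12 (ATR) to 0.11 (TRRAP) for ADAR2 against control. Of 7 chaperones that mature this kinase family, TELO2 was apart with both proteins against control, at 93.0, 106 and 127 CPM (0.45, and 0.18 without the GC trend). PP2A subunits, the phosphatase that acts on UPF1, had 0 of 4 apart, with PPP2R1A highest (0.13) and PPP2CA lowest (-0.18) for ADAR2 against control.

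Downstream, XRN1, the exonuclease that degrades the 3′ fragment left by SMG6, was the 1 of 8 decapping and 5′-to-3′ decay genes apart. It had 48.5, 40.7 and 34.6 CPM, log2 ratios against control of -0.25 with ADAR2 and -0.49 with both proteins, and of -0.23 between the overexpressing libraries. Without the GC trend the ratio with both proteins was -0.32. Of 10 deadenylation genes PAN3 was apart (-0.28 for both proteins against control, and -0.12 without the GC trend). Of 15 exosome and SKI genes EXOSC5 (0.38) and EXOSC4 (0.33) were, with 0.17 and 0.20 left after the GC trend.

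In other UPF1-dependent decay, STAU2, a double-stranded RNA binding protein, was at 30.3, 25.03 and 25.1 CPM, 1 of 3 genes apart and lower in both overexpressing libraries (-0.28 and -0.27 against control). Without the GC trend it was at -0.11 and -0.10. PTBP1 and HNRNPL, reported to shield transcripts from UPF1, had 0 of 2 apart and log2 ratios between -0.02 and 0.09.

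Transcripts reported to be degraded by NMD are the readout nearest to the activity of the pathway in such data. Of 13 measured, 0 were apart for ADAR2 against control, near the 7.43% higher and 6.46% lower of all genes, with a median of 0.01 and a range from -0.10 (ZFAS1) to 0.22 (UPP1). Between the overexpressing libraries the median was 0.04 and SNHG15, a snoRNA host RNA, was the 1 gene apart, at 101, 101 and 133 CPM (0.39). Against control, in the library with both proteins, SNHG15 (0.39) and GADD45B, a stress-inducible gene (0.36), were higher and ZFAS1, another snoRNA host, was lower (-0.32, at 105, 98.1 and 84.3 CPM). Without the GC trend SNHG15 was at 0.39, GADD45B at 0.18 and ZFAS1 at -0.43. Members of this list thus lay on both sides of 0, with 7 above and 6 below in each comparison. Gene totals do not separate isoforms with a premature stop from others, so the activity of NMD was not measured.

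Many genes shared the patterns of single members. Within a distance of 0.05 in mean-centred log2 CPM over the 3 libraries lay 445 of 9594 protein-coding genes for UPF1, 418 for SMG9 and 85 for SMG8, the 3 members whose levels spanned over 0.2 log2. Nearest were GMEB2, PFDN2 and GPATCH3 to UPF1, NDUFS7, DCAF15 and ZNF687 to SMG9, and SIRT1, RAB15 and NABP1 to SMG8. With 3 libraries such likeness rests on few values.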

How the data were processed

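RNA was purified with Trizol and made into libraries with a NEBNext Ultra Directional kit, per the labels' protocols. The values deposited by the authors are unnormalised counts, whole numbers of reads for each gene, in 3 libraries. The submitters' processing notes name hg19, STAR, Picard, GATK and SAMtools. How reads were assigned to genes, and whether by strand, is not given in the sources used here.

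Columns were matched to samples by library code. CPM were computed with TMM factors of 1.01, 1.01 and 0.979 (edgeR 4.0.16, R 4.3.3). Log2 ratios used a prior count of 0.5, and intervals are exact Clopper-Pearson 95% intervals for a ratio of counts, Poisson intervals for a level and normal approximations for a ratio of ratios. Variation between cultures is outside them. No test was fitted to single libraries, so counts of genes rest on 1.2-fold and an interval excluding 1. Other steps used Python 3.11.15, numpy 2.4.6, pandas 2.3.3, scipy 1.17.1 and matplotlib 3.10.9.

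Gene types, lengths, GC content and pseudogene names came from GENCODE 29 (GRCh38), matched on identifier without version for 51802 rows. Coordinates were left out because the submitters' notes name another build. The GC trend joins medians of log2 ratios over 50 bins of equal gene number, smoothed over 5. Scripts for ratios and intervals were tested on simulated data.

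Members and lists were chosen with earlier results of these data known. Named genes are the 9 members, their pseudogenes, the overexpressed genes, markers, the highest or lowest of a list or those 1.5-fold apart, and up to 3 nearest genes of a member. The other list genes and HIC1 were named after their values were seen. Other settings tried were 3 scalings, totals that left out mitochondrial and overexpressed genes, a prior count of 5, GC and length trends, added pseudogene reads, other thresholds and the mean over members. Some listed genes are not reported here.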

Additional observations from a re-analysis of the deposited data

How the results depend on the processing

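The number of members 1.2-fold apart for ADAR2 against control, 1, became 0 with the GC trend removed (longest or coding transcripts), at 1.5-fold and with an interval wholly beyond 1.2-fold, 2 with the length trend removed and 6 at 1.1-fold. For both proteins against ADAR2, 0 became 1 at 1.1-fold. For both proteins against control, 0 became 1 with the GC trend of longest transcripts or the length trend removed, and 4 at 1.1-fold. The medians for ADAR2 against control (0.08) and both proteins against control (0.08) were 0.0090 and 0.0083 with the GC trend removed, or 0.0095 and 0.0102 with coding transcripts. The mean over members for ADAR2 against control was 0.0036.

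DESeq2 1.42.0 size factors, upper-quartile scaling, a prior count of 5 and totals that left out mitochondrial and overexpressed genes changed the sign of 0 of 27 member ratios. Plain library totals changed 1, SMG9 for both proteins against ADAR2 (0.03 to -0.02). Removing the GC trend changed 6 of 27, those of SMG1 and SMG5 against control in both libraries and of UPF1 and UPF2 with both proteins. Removing the length trend changed 2, both of SMG1. Over genes with a mean CPM of 10 or more, 7.61%, 4.31% and 18.5% were 1.2-fold apart for ADAR2 over control, both proteins over ADAR2 and both proteins over control, compared with 13.9%, 13.9% and 26.5% at a mean of 1 or more. The added settings, pseudogene rows by identifier and coding-transcript GC, were chosen after seeing the data. With 1 library per group no library could be left out, and depth limits little here: the thinnest member had 3343 reads.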
